A study of Homo sapiens with 8 samples.

Results

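The genes described here make cholesterol and fatty acids: 20 genes of the sterol branch and 8 of the fatty acid branch, chosen by name and found by symbol among the 58302 gene IDs of a count table. All 28 passed the filter on low counts and were among the 18973 genes tested. The tumours grew in mice from T24, a human bladder carcinoma line. In the DDR1 group (4 libraries) the implanted cells carried enforced expression of DDR1, a collagen-activated receptor tyrosine kinase, and in the control group (4 libraries) they did not. The sources used here give no vector, promoter, clonality, mouse strain, tumour age or number of animals. They do not say whether libraries of a group come from separate animals. In the titles, DDR1 replicates 2, 3 and 4 share a prefix, and so do control replicates 3 and 4. DDR1 replicate 1 and control replicates 1 and 2 each have a prefix of their own. What a prefix stands for is not stated, so libraries that share one may not be independent. The p-values therefore set a group difference against the variation among these libraries only, and that variation may be technical.

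Cholesterol is built from acetyl-CoA through mevalonate, farnesyl diphosphate, squalene and lanosterol. Long-chain fatty acids are built from citrate-derived acetyl-CoA through malonyl-CoA, and are then elongated and desaturated. Both branches are transcribed under the sterol regulatory element-binding proteins: the product of SREBF2 acts mainly on sterol genes and that of SREBF1 mainly on fatty acid genes, and both are held in the endoplasmic reticulum by INSIG proteins when sterols are plentiful.

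Levels are CPM, the counts of a gene relative to library size after scaling by the trimmed mean of M values (TMM), listed for DDR1 replicates 1 to 4 and then control replicates 1 to 4. Library totals ran from 20789503 to 32271031 expected counts in the DDR1 group and from 13716286 to 22736674 in controls, and no member had fewer than 56 expected counts in any library. DDR1 itself stood at 159, 343, 427 and 810 CPM in DDR1 libraries, against 138, 110, 210 and 149 CPM in controls. The library labelled DDR1 replicate 1 therefore lay inside the control range, and its DDR1 level goes against its label. That library is also the only DDR1 library outside the shared title prefix. DDR1 had a log2 fold change of 1.52 ± 0.43, where the second value is the standard error (SE; edgeR quasi-likelihood test, unadjusted p = 0.00612, adjusted p over all genes = 0.9998), and an exact two-sided permutation test gave p = 0.0571, where 70 orderings allow 0.0286 at the smallest. All DDR1 titles name lane 8, while control titles name lane 7 (replicates 1 and 2) or no lane, so lane and group cannot be told apart.

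The carcinoma markers KRT7, KRT8, KRT18, KRT19, VIM and HRAS were present in every library. Their summed level ran from 1302 CPM (replicate 3) to 3736 CPM (replicate 4) in DDR1 tumours, and from 1656 to 2332 CPM in controls. Of the 6, 5 were higher and 1 lower in DDR1 tumours. KRT19 had a log2 fold change of 0.95 (edgeR, unadjusted p = 0.0363, adjusted p = 0.9998). VIM spanned 7.29-fold over the 8 libraries. The tumours grew in mice, while the counts are of human genes. The sums of adipocyte, fibroblast, endothelial and leukocyte markers therefore cannot show how many such cells of the mouse were present. Adipocytes make much fatty acid. The 8 adipocyte markers summed to between 1.87 and 3.76 CPM in DDR1 libraries and between 1.55 and 4.09 CPM in controls. CIDEA was at 0 in 7 of the 8 libraries. The 6 fibroblast markers summed to between 3.65 and 38.7 CPM in DDR1 libraries and between 8.999 and 44.0 CPM in controls, mostly COL1A1 and COL3A1. The 5 endothelial markers, mostly CDH5 and PECAM1, summed to between 9.08 and 76.0 CPM in DDR1 libraries and between 8.65 and 55.9 CPM in controls. The 6 leukocyte markers summed to between 18.8 and 47.0 CPM in DDR1 libraries and between 13.3 and 37.6 CPM in controls, nearly all of it CD68, with PTPRC at or under 0.167 CPM in every library. The 13 mitochondrially encoded genes, a sign of RNA quality, summed to between 14580 and 19550 CPM in DDR1 libraries and between 9743 and 21230 CPM in controls, with 12 of 13 higher in DDR1 tumours and none passing the test. The part of these markers in the values of the lipid genes was not tested. In bulk tumour RNA, fewer cells of a type and less RNA per cell cannot be told apart.

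None of the 28 members passed at an adjusted p under 0.05 in edgeR's quasi-likelihood test, where the share over all genes was 0% (0 of 18973). None had an unadjusted p under 0.05 either, against 4.17% of all genes (1.93% higher and 2.24% lower in DDR1 tumours). Under the 20 alternatives, 9 of 560 member values had an unadjusted p under 0.05, from 6 genes, and their adjusted p stayed at 0.486 or above. They were ELOVL6 (0.0472 with DESeq2, 0.0466 with limma-voom, 0.0458 without DDR1 replicate 4 and 0.0451 without control replicate 4), SCD (0.0171 without the library labelled DDR1 replicate 1), and TM7SF2 (0.0349 without DDR1 replicate 3). The others were IDI1 and FADS2 (0.0387 and 0.0288 in limma-voom with library quality weights) and HMGCS1 (0.0497 without the 2 controls of lane 7). Over all 18973 genes, 918 had an unadjusted p under 0.05 with DESeq2, 738 with limma-voom and 1868 with quality weights. Without the library labelled DDR1 replicate 1, 927 of 19472 genes did in edgeR. The groups overlapped for every member, while 2.40% of all genes had groups that did not overlap (1.27% higher and 1.13% lower in DDR1 tumours). Of the sterol branch, 13 of 20 members were higher and 7 lower in DDR1 tumours, with a median log2 fold change of 0.12. Of the fatty acid branch, 4 of 8 were higher and 4 lower, with a median of 0.0075. Over all genes tested 49.5% were higher and 50.5% lower, and the median was -0.0030. Standard errors of the members ran from 0.13 (FDFT1) to 0.42 (TM7SF2) on the log2 scale. Without DDR1 replicate 4 the median was 0.03 for the sterol branch and -0.12 for the fatty acid branch. Without the library labelled DDR1 replicate 1 they were 0.09 and -0.04, with 11 of 20 and 3 of 8 members higher.

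**Figure D1:**
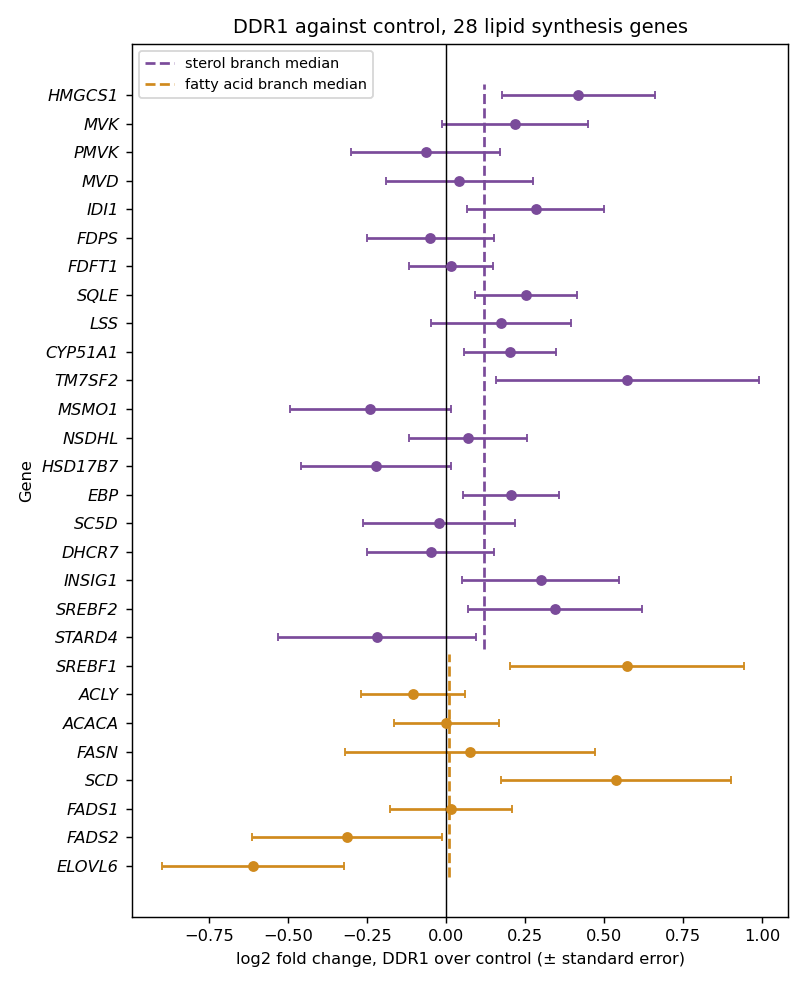
Log2 fold change of DDR1 over control with its standard error for each of the 28 genes, the sterol branch above and the fatty acid branch below; dashed lines mark the branch medians of 0.12 and 0.0075. ELOVL6 at -0.61 and SREBF1 at 0.57 are the lowest and the highest points of the fatty acid branch, and no gene passed the test.

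The mevalonate arm opens the sterol branch. HMGCS1 (ENSG00000112972, GRCh38 chromosome 5, 43289395 to 43313512, minus strand) joins acetyl-CoA units into HMG-CoA. It held 53.3, 56.9, 74.2 and 88.3 CPM in DDR1 libraries, against 59.1, 61.3, 31.9 and 51.9 CPM in controls. DDR1 replicates 3 and 4 stood above all controls, control replicate 3 stood below all other libraries, and the remaining DDR1 libraries lay among the controls. The log2 fold change was 0.42 ± 0.24 SE, with the smallest p of the sterol branch (edgeR, unadjusted p = 0.118, adjusted p = 0.9998), and leaving out control replicate 3 gave 0.25.

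IDI1, which isomerises isopentenyl diphosphate, held 18.9, 18.7, 14.5 and 21.6 CPM in DDR1 libraries, against 11.9, 16.6, 19.4 and 12.6 CPM in controls (log2 fold change 0.28 ± 0.22 SE). Mevalonate kinase (MVK) held 11.3, 10.4, 9.75 and 16.0 CPM in DDR1 libraries, against 12.8, 9.06, 10.2 and 8.76 CPM in controls (0.22 ± 0.23 SE). In both genes DDR1 replicate 4 was the highest library and the rest of the DDR1 group lay within the control range. The other members of this arm, PMVK, MVD and FDPS, which complete the path to farnesyl diphosphate, had log2 fold changes between -0.07 and 0.04.

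Squalene and lanosterol are made by FDFT1, SQLE and LSS. SQLE, the epoxidase that adds oxygen to squalene, held 91.7, 88.7, 84.4 and 118 CPM in DDR1 libraries, against 85.6, 90.0, 78.3 and 67.5 CPM in controls. DDR1 replicates 1 and 4 were above all controls, and DDR1 replicates 2 and 3 were among them (log2 fold change 0.25 ± 0.16 SE, edgeR unadjusted p = 0.153). FDFT1, which joins farnesyl units into squalene, was the steadiest of the 28 genes, with 69.01 ± 4.74 CPM in DDR1 tumours and 68.3 ± 5.54 CPM in controls (SD, n = 4 each). LSS, the cyclase that forms lanosterol, averaged 42.1 ± 10.97 CPM in DDR1 tumours and 37.3 ± 7.34 CPM in controls (SD, n = 4 each).

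The steps from lanosterol to cholesterol did not share a direction, with 4 of 8 genes higher and 4 lower. CYP51A1, the lanosterol demethylase, held 69.3, 66.5, 59.2 and 72.1 CPM in DDR1 libraries, against 62.9, 65.3, 50.2 and 53.9 CPM in controls, and DDR1 replicate 3 was the 1 DDR1 library inside the control range (log2 fold change 0.20 ± 0.14 SE). EBP, a sterol isomerase, held 39.8, 36.0, 28.7 and 36.1 CPM in DDR1 libraries, against 30.5, 33.4, 28.1 and 30.2 CPM in controls, with the same library inside the control range (0.20 ± 0.15 SE). The sterol reductase TM7SF2 held 12.1, 7.15, 2.95 and 8.40 CPM in DDR1 libraries, against 3.93, 7.89, 4.39 and 4.34 CPM in controls. DDR1 replicate 1 was the highest and DDR1 replicate 3 the lowest of all 8 libraries for TM7SF2, a 4.10-fold span that was the widest of the 28 genes (log2 fold change 0.57 ± 0.42 SE; leaving out the library labelled DDR1 replicate 1 gave 0.26, and leaving out control replicate 2 gave 0.86).

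MSMO1, the C4-methyl oxidase, was picked out after its values were seen, as were SC5D and STARD4. MSMO1 held 16.6, 33.2, 29.4 and 19.9 CPM in DDR1 libraries, against 35.0, 27.9, 21.5 and 32.7 CPM in controls, with DDR1 replicates 1 and 4 below all controls (log2 fold change -0.24 ± 0.26 SE). The desaturase SC5D held 45.04, 49.0, 44.4 and 34.4 CPM in DDR1 libraries, against 44.1, 60.1, 26.1 and 45.3 CPM in controls, and control replicate 3 was the lowest (-0.02 ± 0.24 SE). NSDHL, HSD17B7 and DHCR7, which act in the same stretch, had log2 fold changes of 0.07, -0.22 and -0.05.

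INSIG1 and SREBF2 regulate the branch. INSIG1, a sterol-sensing retention protein whose own gene is an SREBP target, held 10.7, 14.8, 15.6 and 20.6 CPM in DDR1 libraries, against 16.1, 12.6, 9.39 and 12.03 CPM in controls (log2 fold change 0.30 ± 0.25 SE). As with HMGCS1, DDR1 replicate 4 was the highest library and control replicate 3 the lowest. SREBF2 (ENSG00000198911, chromosome 22, 41833079 to 41907308, plus strand) held 121, 95.1, 87.0 and 212 CPM in DDR1 libraries, against 88.0, 96.1, 119 and 103 CPM in controls. The group difference of SREBF2 came with 1 library: DDR1 replicate 4 stood far above the other 7, which lay between 87.0 and 121 CPM, and the log2 fold change of 0.34 ± 0.28 SE was 0.0048 without it. STARD4, a cytosolic sterol carrier, held 26.4, 38.2, 45.4 and 26.5 CPM in DDR1 libraries, against 59.1, 35.9, 20.8 and 43.2 CPM in controls, with the highest and the lowest library both in the control group (-0.22 ± 0.31 SE).

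**Figure D2:**
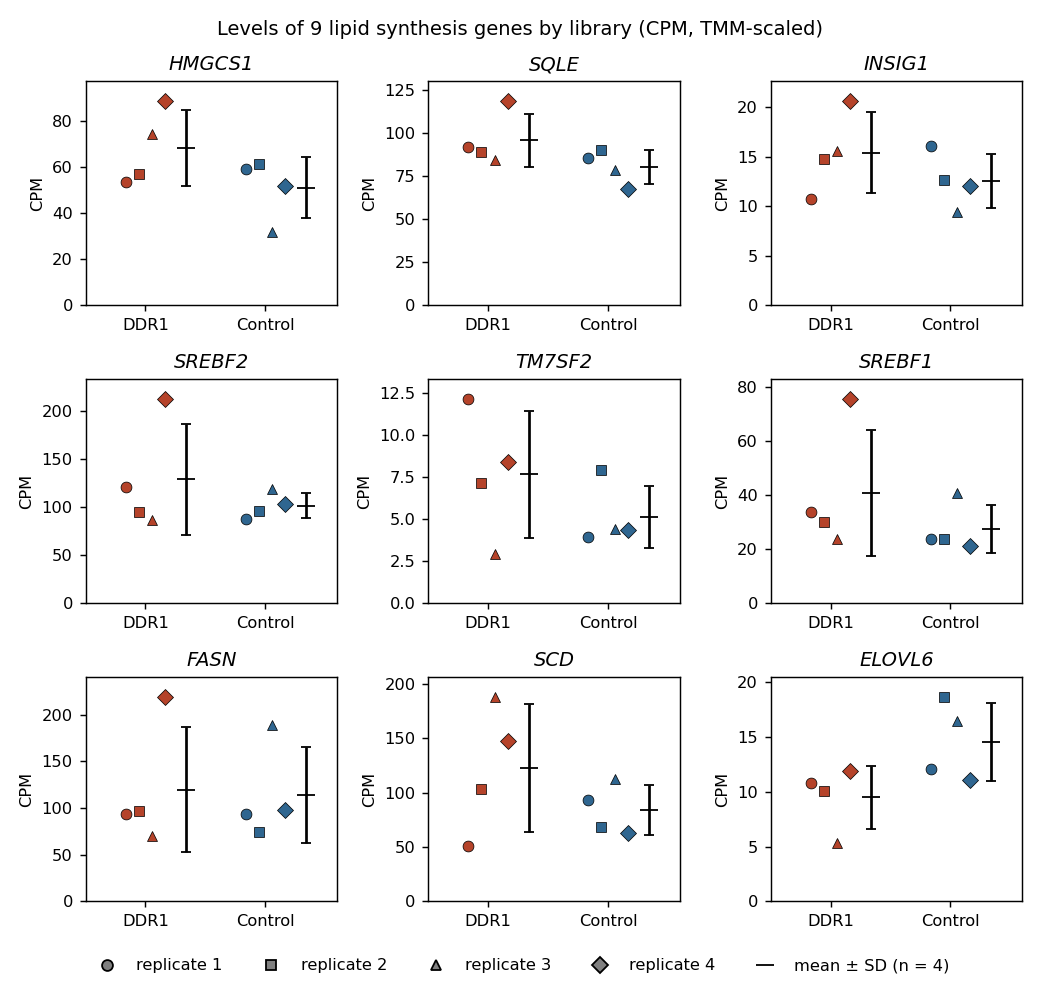
CPM in each library for 9 genes, DDR1 left and control right, with the replicate shown by the marker shape and the group mean ± SD (n = 4) beside the points. DDR1 replicate 4 (diamond) is the highest of the 8 libraries for HMGCS1, SQLE, INSIG1, SREBF2, SREBF1 and FASN, while SCD peaks in DDR1 replicate 3 (triangle, 188 CPM).

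Promoter sequence is shown for 4 of the genes above and below because SREBPs read a short sterol regulatory element (SRE), which acts beside CCAAT boxes bound by NF-Y. The RefSeq table of promoters (GRCh38.p14, 250 bases before to 50 after each start) held 25 of the 28 genes. The SRE core searched was CACNCCAC on both strands, with overlaps allowed, and the boxes were CCAAT and GGGCGG. Capitals mark the SRE core, read on the strand of the gene, so that GTGGCGTG and GTGGTGTG are matches on the other strand.
SREBF2 (chr22:41832953-41833020, plus strand): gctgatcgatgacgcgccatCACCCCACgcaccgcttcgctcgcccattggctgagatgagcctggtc
INSIG1 (chr7:155297650-155297717, plus strand): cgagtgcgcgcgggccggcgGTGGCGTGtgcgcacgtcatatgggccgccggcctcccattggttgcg
IDI1 (chr10:1048954-1049021, minus strand): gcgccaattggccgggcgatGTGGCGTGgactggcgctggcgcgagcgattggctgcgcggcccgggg
SCD (chr10:100347099-100347166, plus strand): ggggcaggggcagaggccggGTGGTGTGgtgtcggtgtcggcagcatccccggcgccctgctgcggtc

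The matches lay 132 (SREBF2), 208 (INSIG1), 115 (IDI1) and 114 (SCD) bases upstream of a RefSeq start. IDI1 has 3 listed promoters, and its distance is for the promoter that holds the core. In the GENCODE 29 annotation, IDI1 starts at 1049170 and SCD at 100347124, so their matches do not lie wholly upstream. In the windows of SREBF2, INSIG1 and IDI1 an inverted CCAAT box (attgg) follows the core, and that of IDI1 also holds ccaattgg before it. The SCD window has none, but the SCD promoter held CCAAT farther upstream, at -229 and -186 bases from the start. Over the members, 6 of 25 genes (24%) held the core, SC5D and ACACA being the others, against 7.05% of the 27305 genes in the table. A CCAAT box was present in 20 of 25 members (80.0%), against 39.7% of all genes, and GGGCGG in 24 of 25 (96.0%), against 48.3%. By branch, the core was present in 4 of 18 sterol genes and 2 of 7 fatty acid genes. A gene was counted when any of its listed promoters held the letters, and some members have 2 or 3. The 27305 genes were not limited to those tested here. The shares are therefore not matched for expression or for number of promoters. A match is a description of the letters only.

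The fatty acid branch is led by SREBF1 (ENSG00000072310, chromosome 17, 17810399 to 17837002, minus strand). It held 33.9, 30.2, 23.8 and 75.5 CPM in DDR1 libraries, against 23.7, 23.9, 40.7 and 21.4 CPM in controls. DDR1 replicate 4 was the highest of all and control replicate 3 the highest control (log2 fold change 0.57 ± 0.37 SE, edgeR unadjusted p = 0.154; leaving out DDR1 replicate 4 gave 0.11, and leaving out control replicate 3 gave 0.83).

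ACLY cleaves citrate to acetyl-CoA, ACACA carboxylates it to malonyl-CoA, and FASN assembles palmitate. FASN (ENSG00000169710, chromosome 17, 82078333 to 82098332, minus strand) held 93.6, 96.8, 70.1 and 218 CPM in DDR1 libraries, against 93.5, 74.4, 189 and 98.3 CPM in controls. One library in each group, DDR1 replicate 4 and control replicate 3, held about the same high level, and the other 6 lay between 70.1 and 98.3 CPM. The log2 fold change was 0.07 ± 0.40 SE, and it lay at -0.37 when DDR1 replicate 4 was left out and at 0.43 when control replicate 3 was. ACACA averaged 142 ± 21.6 CPM in DDR1 tumours and 142 ± 18.6 CPM in controls, and ACLY averaged 158 ± 20.8 CPM in DDR1 tumours and 170 ± 23.5 CPM in controls (SD, n = 4 each). Both were highest in control replicate 3 and lowest in DDR1 replicate 3.

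Desaturation and elongation genes had both signs, with 2 of 4 higher and 2 lower. SCD, the delta-9 desaturase that makes oleate, held 51.0, 103, 188 and 148 CPM in DDR1 libraries, against 93.2, 68.7, 113 and 62.8 CPM in controls. The lowest and the highest library were both DDR1 libraries, replicates 1 and 3 (log2 fold change 0.54 ± 0.36 SE, edgeR unadjusted p = 0.173; leaving out DDR1 replicate 3 gave 0.26, and leaving out the library labelled DDR1 replicate 1 gave 0.79). SCD was the 1 gene of the 28 with its peak in DDR1 replicate 3, the library in which FASN, ACACA, ACLY and ELOVL6 were at their lowest.

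ELOVL6, which extends palmitate to stearate, held 10.8, 10.1, 5.34 and 11.8 CPM in DDR1 libraries, against 12.02, 18.6, 16.4 and 11.04 CPM in controls. DDR1 replicates 1, 2 and 3 lay below all controls and DDR1 replicate 4 among them. Its log2 fold change of -0.61 ± 0.29 SE had the smallest p of the 28 genes (edgeR, unadjusted p = 0.0610, adjusted p = 0.9998) and stayed between -0.73 and -0.41 with any 1 library left out. FADS2, the delta-6 desaturase, held 6.29, 4.37, 7.37 and 6.15 CPM in DDR1 libraries, against 8.31, 5.68, 5.12 and 11.04 CPM in controls (-0.32 ± 0.30 SE). FADS1, the delta-5 desaturase, averaged 57.9 ± 11.4 CPM in DDR1 tumours and 57.3 ± 9.82 CPM in controls (SD, n = 4 each). The gene models of FADS1 and FADS2 overlap on opposite strands, and the protocol mentions no strand marking.

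Per kilobase of annotated exon, a scale on which genes can be compared, ACLY was the highest member, at 30.3 ± 3.98 CPM per kb in DDR1 tumours and 32.6 ± 4.50 in controls (SD, n = 4 each). Next over the 8 libraries were SQLE at 22.2 ± 3.54 CPM per kb in DDR1 tumours and 18.7 ± 2.28 in controls, and SCD, at 22.8 ± 10.96 CPM per kb in DDR1 tumours and 15.7 ± 4.29 in controls. SQLE and SCD did not differ beyond their spread. FADS2 was the lowest, at 0.548 ± 0.113 CPM per kb in DDR1 tumours and 0.684 ± 0.247 in controls. The 2 regulators differed in level, SREBF2 at 17.0 ± 7.57 CPM per kb in DDR1 tumours and 13.4 ± 1.74 in controls, and SREBF1 at 5.09 ± 2.92 CPM per kb in DDR1 tumours and 3.42 ± 1.11 in controls. The exons are the union over GENCODE 29 transcripts, so a gene with long exons that are not used reads too low.

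Libraries of the same group differed widely for some members. The highest library exceeded the lowest by a median of 1.80-fold in the sterol branch and 2.82-fold in the fatty acid branch, over the 8 libraries. DDR1 replicate 4 was the highest library for 12 of the 28 genes and the lowest for none. DDR1 replicate 3 was the lowest for 9 genes, 5 of the sterol and 4 of the fatty acid branch, and control replicate 3 was the lowest for 7 genes and the highest for 3. These 2 DDR1 libraries, replicates 3 and 4, had DDR1 itself at 427 and 810 CPM, the highest levels of all. The same counts of highest and lowest libraries were not made over all genes. Whether they are particular to the 28 genes was therefore not tested.

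**Figure D3:**
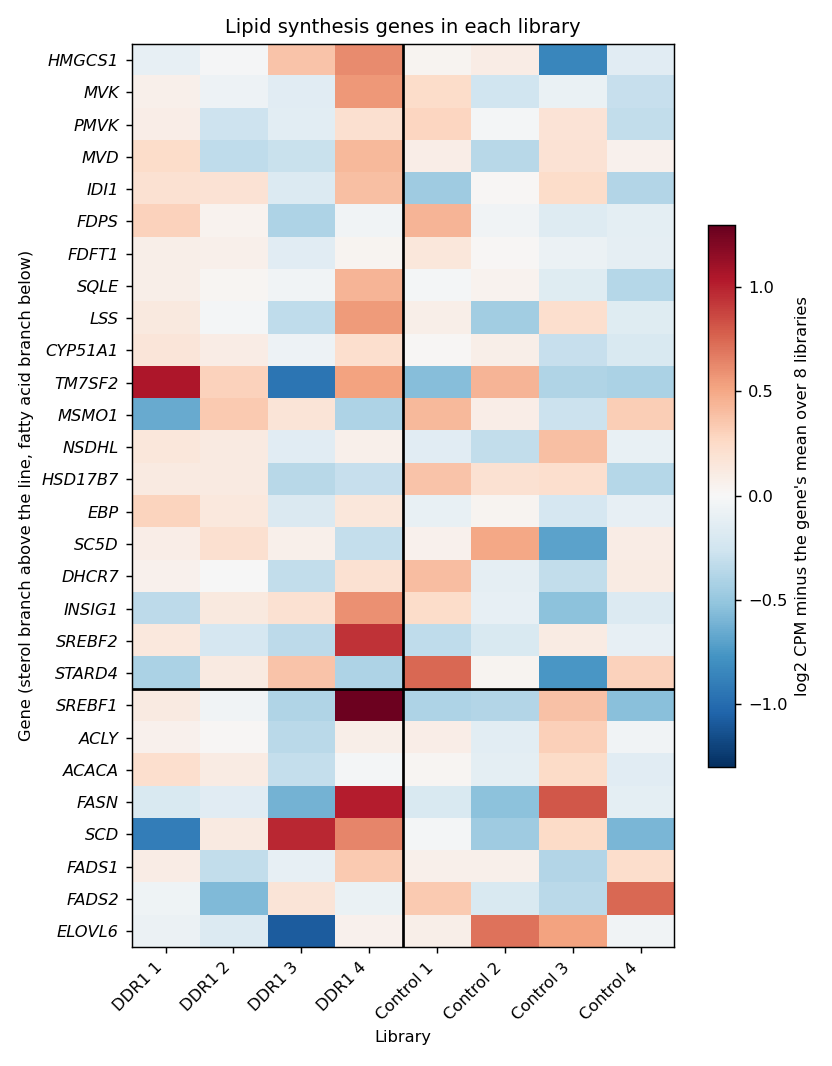
Log2 CPM of each gene minus its mean over the 8 libraries, with DDR1 libraries left of the vertical line and controls right, and the sterol branch above the horizontal line. In DDR1 replicate 4, 15 of 20 sterol and 6 of 8 fatty acid genes lie above their own mean, with STARD4, MSMO1, SC5D, HSD17B7 and FDPS among those below, and control replicate 3 is high for FASN (0.81) and SREBF1 (0.38) and low for HMGCS1 (-0.85), STARD4 (-0.76) and SC5D (-0.70). Over all genes tested, the median of the same values was 0.011 in DDR1 replicate 4 and 0.049 in control replicate 3.

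Set side by side by library, the branches did not move as 1 block. The mean of the sterol members, each as log2 CPM minus its own mean over the 8 libraries, was 0.08, 0.05, -0.14 and 0.22 in DDR1 libraries, against 0.10, -0.02, -0.17 and -0.13 in controls. The same mean of the fatty acid members was -0.09, -0.13, -0.21 and 0.41 in DDR1 libraries, against -0.003, -0.13, 0.22 and -0.07 in controls. Both branches were at their highest in DDR1 replicate 4, and in control replicate 3 the fatty acid mean was high while the sterol mean was the lowest of all. The sterol mean minus the fatty acid mean was 0.18, 0.18, 0.07 and -0.19 in DDR1 libraries, against 0.10, 0.12, -0.39 and -0.06 in controls, so that the groups overlapped in this difference as well.

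**Figure D4:**
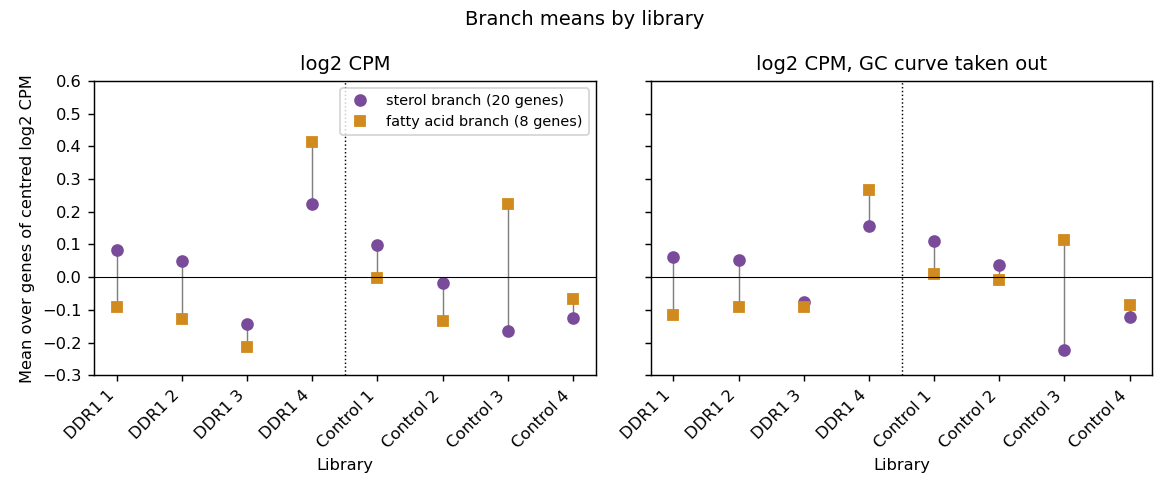
Mean over the genes of a branch of centred log2 CPM in each library, sterol branch as circles and fatty acid branch as squares, with DDR1 libraries left of the dotted line; the right panel shows the same after a curve of GC content was taken out. The branches stand farthest apart in control replicate 3 (sterol -0.17, fatty acid 0.22; -0.22 and 0.11 with the curve taken out).

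GC content of the transcript moved with these differences between libraries, and its part in them was not tested beyond the values below. Over 13827 protein-coding genes, the median of those with a GC content from 56.4% stood above the median of those up to 41.8% by 0.56 (log2) in DDR1 replicate 4 and by 0.33 in control replicate 3. It stood below by 0.32 in DDR1 replicate 3 and by 0.44 in control replicate 2. FASN (65.3% GC), SREBF1 (62.8%) and SREBF2 (57.1%) are GC-rich, while STARD4 (34.2%), MSMO1 (38.1%), SC5D (38.6%) and HMGCS1 (40.2%) are not, against a median of 48.2% over those genes. With a GC curve taken out in each library, FASN stood 0.46 above its own mean in DDR1 replicate 4, against 1.02 before, and 0.50 in control replicate 3, against 0.81 before. SREBF1 stood 0.81 above in DDR1 replicate 4, against 1.27 before, and SREBF2 0.71, against 0.94 before. Relative to its mean, HMGCS1 stood at 0.79 in DDR1 replicate 4, against 0.62 before, and at -0.77 in control replicate 3, against -0.85 before. SCD stood 1.01 above its mean in DDR1 replicate 3, against 0.98 before.

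**Figure D5:**
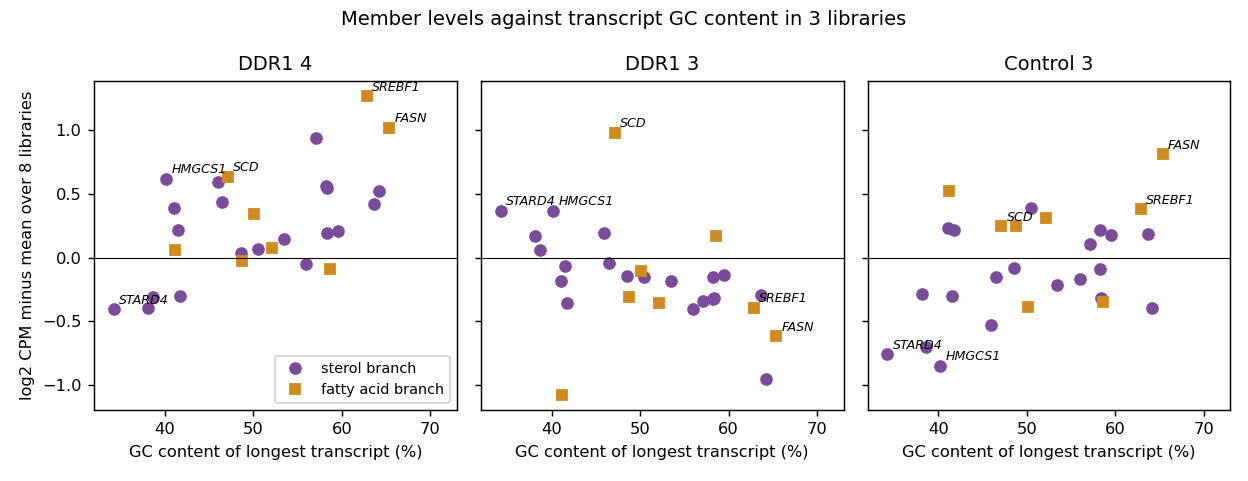
Log2 CPM of each member minus its mean over the 8 libraries, against the GC content of its longest transcript, in DDR1 replicate 4, DDR1 replicate 3 and control replicate 3. Of the 10 members with a GC content from 56.4%, 9 lie above their own mean in DDR1 replicate 4, 1 in DDR1 replicate 3 and 6 in control replicate 3; FADS2 (58.6%) goes the other way in each, and HMGCS1 (40.2%) differs between the 2 libraries in which FASN is high.

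Whether the regulators moved with 1 gene of each branch was asked over the 8 libraries, on log2 CPM. The 6 pairs were those of SREBF2, SREBF1, HMGCS1 and FASN, and neither branch as a whole was set against its regulator. SREBF1 and SREBF2 had a Pearson r of 0.939 (exact permutation p = 0.00481, 0.0179 adjusted over the 6 pairs) and a Spearman rho of 0.690 (exact permutation p = 0.0694, 0.208 adjusted). SREBF1 and FASN had an r of 0.872 (exact permutation p = 0.00647, 0.0179 adjusted) and a rho of 0.548 (exact permutation p = 0.171, 0.342 adjusted). SREBF2 and FASN had an r of 0.828 (exact permutation p = 0.00893, 0.0179 adjusted) and a rho of 0.762 (exact permutation p = 0.0368, 0.208 adjusted). Without the 2 libraries farthest from the median of the regulator, r was 0.703 for SREBF2 with SREBF1. It was 0.874 for SREBF2 with FASN and 0.287 for SREBF1 with FASN. On this scale, the last relation rests on DDR1 replicate 4 and control replicate 3. With the GC curve taken out and the farthest 2 chosen anew, r was 0.42, 0.42 and 0.43 in the same order. Each was below its r over all 8 libraries on that scale.

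HMGCS1 had no relation that passed these tests. Its r was 0.268 with SREBF2 (exact permutation p = 0.430, 0.646 adjusted; rho -0.190, exact permutation p = 0.665, 0.797 adjusted) and 0.188 with SREBF1 (exact permutation p = 0.602, 0.674 adjusted; rho 0.095, exact permutation p = 0.840, 0.840 adjusted). HMGCS1 and FASN had an r of -0.166 (exact permutation p = 0.674, 0.674 adjusted; rho -0.310, exact permutation p = 0.462, 0.693 adjusted). Leaving out the 2 farthest libraries gave -0.944, -0.276 and -0.874 for these 3 pairs over 6 libraries, with no p taken. After the GC curve was taken out, the same omission gave -0.49, -0.59 and -0.43. Over all 8 libraries on that scale, r was 0.56, 0.43 and -0.06 for these pairs. With the GC curve taken out, none of the 6 pairs passed after adjustment: r was 0.856 for SREBF2 with SREBF1 (exact permutation p = 0.0142, 0.0851 adjusted), 0.689 for SREBF1 with FASN (exact permutation p = 0.0554, 0.166 adjusted) and 0.566 for SREBF2 with FASN (exact permutation p = 0.136, 0.272 adjusted). Lane 8 is named for 4 libraries and lane 7 for 2, while 2 titles name none, so no lane holds the 6 libraries that a correlation of its own was taken to need. On log2 CPM without the GC curve taken out, libraries were also centred on the mean of those naming the same lane or none. This alternative was chosen after seeing the data. It gave an r of 0.931 for SREBF2 with SREBF1, 0.979 for SREBF1 with FASN and 0.875 for SREBF2 with FASN. With each group centred on its own mean, r was 0.934, 0.951 and 0.870 for the same pairs. With the GC curve taken out, the lane-centred r were 0.836, 0.943 and 0.66, and the group-centred r were 0.825, 0.870 and 0.65. Centring keeps DDR1 replicate 4 and control replicate 3 in. The centred r therefore cannot show whether a relation holds without those libraries, and no p was taken for them.

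Neighbouring pathways were described from lists that hold no member, chosen with earlier results known. Of 11 other tested genes of sterol synthesis and SREBP handling, 8 were higher and 3 lower in DDR1 tumours (median log2 fold change 0.085), and none passed; TMEM97 had 0.29, PCYT2 0.20 and ERG28 0.14. Of 15 other tested genes of fatty acid synthesis and activation, 3 were higher and 12 lower (median -0.11), and none passed. LPIN1, a phosphatidate phosphatase, had -0.34, and the acyl-CoA synthetases ACSL1 and ACSL3 had -0.41 and -0.25, with unadjusted p of 0.140, 0.149 and 0.216 in edgeR. Of 12 fatty acid oxidation genes, 5 were higher and 7 lower (median -0.03), none passed over all genes, and HADH had an unadjusted p of 0.0488 (edgeR, log2 fold change -0.45).

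The last list holds genes that store or export sterols. Of 11 tested, 7 were higher and 4 lower (median 0.10), none passed over all genes, and 2 had groups that did not overlap, where the share over all genes was 2.40%. No test was made of that count. NPC2, which carries cholesterol out of the lysosome, held 64.1, 68.9, 59.7 and 64.7 CPM in DDR1 libraries, against 48.3, 42.8, 53.9 and 47.8 CPM in controls. All DDR1 libraries lay above all controls (log2 fold change 0.42 ± 0.13 SE, edgeR unadjusted p = 0.0115, adjusted p = 0.9998). SOAT1, which esterifies cholesterol, held 48.5, 48.6, 50.7 and 37.5 CPM in DDR1 libraries, against 57.5, 56.6, 57.0 and 53.9 CPM in controls, all DDR1 libraries lying below all controls (-0.28 ± 0.14 SE, edgeR unadjusted p = 0.0773). The sterol exporter ABCG1 held 9.11, 8.48, 14.1 and 10.7 CPM in DDR1 libraries, against 4.71, 3.26, 3.88 and 11.7 CPM in controls, with control replicate 4 inside the DDR1 range (0.85 ± 0.41 SE, edgeR unadjusted p = 0.0652).

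Reads of some members are shared with other annotated genes. Gene models of 18 of the 28 members overlap another gene of the table, 7 of them on the same strand, TM7SF2 with VPS51 among them. Pseudogene copies took counts equal to 17.5% of those of HSD17B7 and 4.88% of those of FDPS, and 1.12% or less for IDI1, CYP51A1 and SCD, so the values of HSD17B7 are uncertain where the counting split reads between copies. Removal of mouse reads is not stated in the labels, and the part of mouse reads in these values was not tested.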

How the data were processed

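Per the labels' protocols, RNA of homogenised tumours was selected on poly-T beads and sequenced as paired 150 bp reads. RSEM 1.3.1, STAR 2.7.5, Trim Galore 0.6.4, FastQC 0.11.9 and the build GRCh38 are named per the submitters' processing notes; the annotation is not given in the sources used here. The authors deposited expected counts per gene, and TMM-normalized values that are already on a log2 scale, which served as 1 alternative; the 8 files of single libraries repeat those log2 values. Of the 58302 gene IDs, 58039 matched GENCODE 29, the source of coordinates, exons and GC content.

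Expected counts were rounded, filtered with filterByExpr (minimum count 10), scaled by TMM and tested with edgeR 4.0.16 (limma 3.58.1, R 4.3.3) in 1 fit of DDR1 against control over 8 libraries and 18973 genes, with no covariate and Benjamini-Hochberg adjustment over all genes; adjusted p under 0.05 was called. Standard errors (SE) were taken from the quasi-likelihood F. For log2 CPM the prior count was 2. The fits were tested on simulated data. Every pair of libraries differed by more than sampling noise (chi-square over degrees of freedom at least 30.7). Replicate numbers follow accession order and pair nothing. Alternatives were 2 other scalings, DESeq2 1.42.0, limma-voom with and without quality weights, limma-trend, 2 filters, each library left out, controls left out by lane, and libraries of a shared title prefix summed. A GC offset was added after seeing the data: per library, a lowess curve of centred log2 CPM on GC content of the longest transcript.

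The members and lists were chosen with earlier results of these data known. Values in every library were given for SREBF1, SREBF2, INSIG1, HMGCS1 and FASN and for the 6 further sterol and 3 further fatty acid genes with the smallest p; of other lists at most 3 genes were named, and markers only above 5 CPM, CIDEA and PTPRC apart.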

Additional observations from a re-analysis of the deposited data

Results flagged for a closer look

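In 4 of 60 groups of 4 libraries (28 genes in 2 groups, and the 2 branch means), 1 library stood apart from the other 3 by more than Dixon's 95% critical value allows; chance gives about 1 in 20. FDFT1 was low in DDR1 replicate 3, at 62.0 CPM. ACLY was low in the same library, at 127 CPM. TM7SF2 was high in control replicate 2, at 7.89 CPM. SREBF1 was high in control replicate 3, at 40.7 CPM.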

How the results depend on the processing

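No paired analysis was possible because the replicate numbers follow accession order. No member was called by any alternative. Genes called over all numbered 0 in each alternative except DESeq2, which called 15, none of them a member. The DDR1 log2 fold change lay between 1.05 and 1.79 with 1 library left out and at 1.31 without the 2 controls of lane 7, where its unadjusted p was 0.0653 (edgeR; 0.00612 with all libraries). Its adjusted p was over 0.05 with all libraries and in every alternative, at 0.146 (DESeq2) or above. With 1 library left out the branch medians ran from 0.03 to 0.20 (sterol) and from -0.12 to 0.08 (fatty acid). Over 20 alternatives, 17 of 28 members kept their sign throughout, and the sign changed in 54 of 560 values, all from members with a log2 fold change within 0.22 of 0; the cause was not tested. With 1 library left out, ACACA ran from -0.078 to 0.10, DHCR7 from -0.15 to 0.10, FADS1 from -0.10 to 0.12, FASN from -0.37 to 0.43, FDFT1 from -0.014 to 0.078, FDPS from -0.17 to 0.12, MVD from -0.10 to 0.15, NSDHL from -0.019 to 0.24, PMVK from -0.16 to 0.036, SC5D from -0.20 to 0.17 and STARD4 from -0.43 to 0.045. ACACA was 0.00749 with DESeq2 size factors in edgeR, 0.00746 with DESeq2, 0.00714 on the deposited log2 table, 0.0743 with quality weights, 0.0261 with no filter, 0.0601 without the controls with no lane, 0.0913 with prefixes summed and 0.0203 with the GC offset. SC5D was 0.0336 with limma-voom, 0.0655 with quality weights, 0.0365 on the log2 table and 0.000321 with no filter. Quality weights gave MVD -0.22 and FADS1 -0.28. Without the 2 controls of lane 7, PMVK was 0.0648, MVD -0.0472, FDPS 0.17, NSDHL -0.0864, SC5D 0.30, DHCR7 0.11, STARD4 0.12 and FASN -0.23. Without the 2 with no lane, FDFT1 was -0.0689 and FADS1 -0.037. With prefixes summed, FDPS was 0.014 and FASN -0.00121. With the GC offset, MVD was -0.0252 and FASN -0.0314. No alternative changed the depth; the lowest expected count of a member in a library was 56.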
